A study of Mus musculus with 28 samples.

Results

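Whole cerebral cortex of mice in the acute phase of experimental autoimmune encephalomyelitis (EAE) was compared with that of healthy mice. The comparison used every gene and 10 of the 28 libraries of the series, chosen by their labels: 5 acute and 5 healthy libraries of the input, the RNA taken before ribosomes were pulled down. EAE is a mouse model of multiple sclerosis in which an immune response to myelin is raised by immunisation, here active immunisation with the peptide MOG35-55. The acute mice were taken 15 days after immunisation. All mice, the healthy ones included, had the genotype Glt25d2 BacTRAP, a transgene that tags ribosomes in the cells that use the Glt25d2 promoter, mainly projection neurons of cortical layer 5. The input holds RNA of all cell types. The labels do not say whether healthy mice received adjuvant without the peptide, and they give no age. They also do not say that each library came from its own mouse, so the p-values rest on differences among libraries that may be technical. A further 4 input libraries from the chronic phase, 30 days after immunisation, entered the fit to help estimate that spread.

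EAE lesions are best known in the spinal cord, where T cells that recognise myelin enter and recruit monocytes. Interferons are signalling proteins that bind receptors on most cells and act through the kinases JAK and the transcription factors STAT and IRF to switch on interferon-stimulated genes. Those genes encode antiviral proteins, machinery that presents peptides to T cells, and chemokines that attract leukocytes. Microglia and astrocytes, the resident glia, carry the receptors and can take part in this response.

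Depth ran over 17848273 to 19858188 counts per healthy library and 19020653 to 27915940 per acute library. Levels are given as CPM, counts scaled to a common library size with TMM factors. Markers of the cortex were present: all 15 upper layer, 18 layer 5, 13 layer 6 and 22 interneuron genes listed passed the filter on low counts. Colgalt2, the current name of Glt25d2, was at 53.1 to 59.4 CPM in the healthy and 56.03 to 56.9 CPM in the acute libraries (log2 change -0.00 ± 0.05, adjusted p = 0.984). One library of each group stood apart. Healthy 3 and acute 5 had the highest share of mitochondrial counts of their groups (0.634% and 0.749%, against 0.325% to 0.420% and 0.339% to 0.468%) and lay away from the others on the second principal component, which held 10.3% of the variance. The first component, with 40.7%, separated acute from healthy libraries. Markers of striatum, a region below the cortex, were highest in healthy 3: Adora2a was at 12.9, 19.8, 56.1, 31.6 and 18.9 CPM in healthy 1 to 5 and at 17.2, 6.85, 13.4, 9.08 and 17.9 CPM in acute 1 to 5. The choroid plexus gene Ttr was under 2 CPM in 5 of the 10 libraries and at 48.9 to 153 CPM in the other 5. The summed level of the 12 striatal and choroid plexus markers was 453 to 1333 CPM in healthy and 402 to 718 CPM in acute libraries. Their log2 change of acute against healthy was negative for 10 and positive for 2, with a median of -0.63. The fit was also made without healthy 3 and acute 5, and there that median was -0.21.

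A gene was called when its adjusted p was under 0.05 in edgeR's quasi-likelihood test with Benjamini-Hochberg adjustment over all 16381 genes tested. Of these, 1823 rose in acute EAE (11.1%) and 1407 fell (8.59%), which together is 19.7%. Large changes were mostly rises. More than 2-fold changes made up 30.7% of the genes that rose, 559 in all (3.41% of genes tested), and 3.48% of those that fell, 49 in all (0.299%). The median log2 change was 0.49 among the genes that rose and -0.27 among those that fell, and it was -0.01 over all genes. The 5 acute and 5 healthy libraries did not overlap for 2471 genes (15.1%). At 0 counts in all 5 healthy libraries were 12 tested genes, and all 12 rose.

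**Figure D1:**
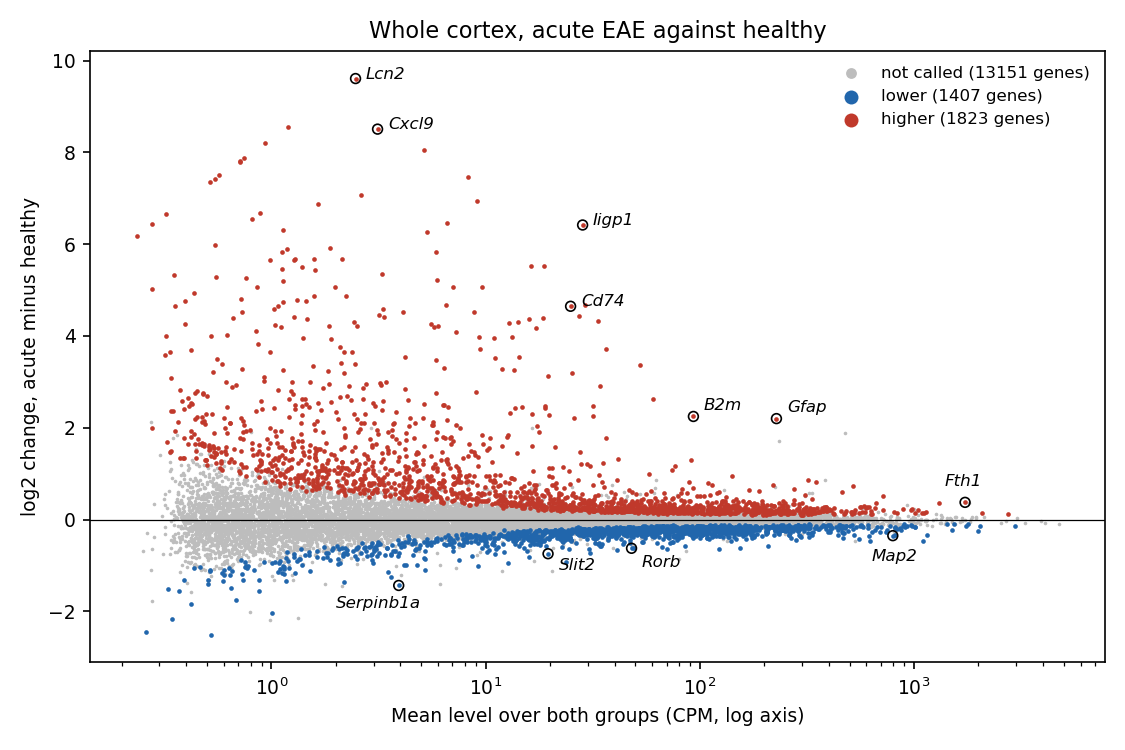
Change of each of the 16381 genes tested against its level. The x axis is the mean of the 2 group means in CPM on a log axis, the y axis the fitted log2 change, and points are genes, red where called higher and blue where called lower. Red points reach above 8, at levels mostly under 10 CPM, while blue points of abundant genes stay between 0 and -1; the fitted change of genes with few healthy counts, such as Lcn2 and Cxcl9, depends on the prior count of the fit.

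Calls depended on gene length. In the tenth of genes with the shortest summed exons (median 835 bases), 17.2% rose and 3.23% fell, and in the tenth with the longest (median 10414 bases) 4.70% rose and 21.1% fell. The median log2 change ran from 0.07 in the first to -0.10 in the last. What set this trend was not tested. An offset for length, added after the data were seen, left 12.1% and 10.6% rising and 5.12% and 9.16% falling in those 2 groups. Counts of neuronal lists that this offset moved most are given beside the results.

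**Figure D2:**
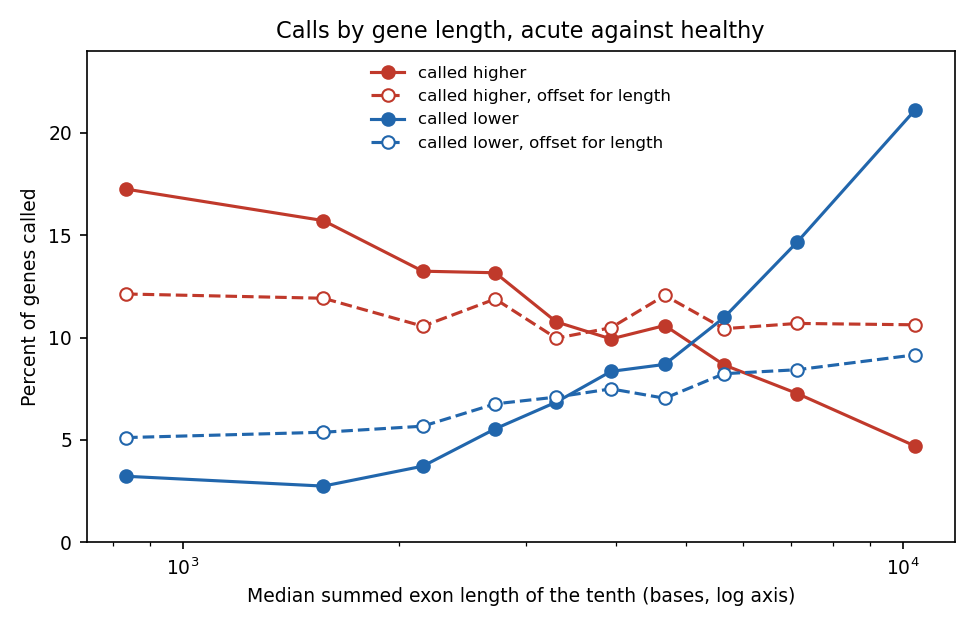
Share of genes called higher (red) and lower (blue) in 10 equal groups of the 16381 genes by summed exon length, in percent, against the group's median length in bases on a log axis. Filled points are the reported fit and open points the fit with an offset for length: the blue line climbs from 3.23% to 21.1% and the open blue points only from 5.12% to 9.16%.

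The members of the gene lists were described by their calls, their medians and the share of all genes called. Lists of interferon, antigen presentation and glial activation genes had most members higher, and lists of synaptic and upper layer genes had more members lower than higher.

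**Figure D3:**
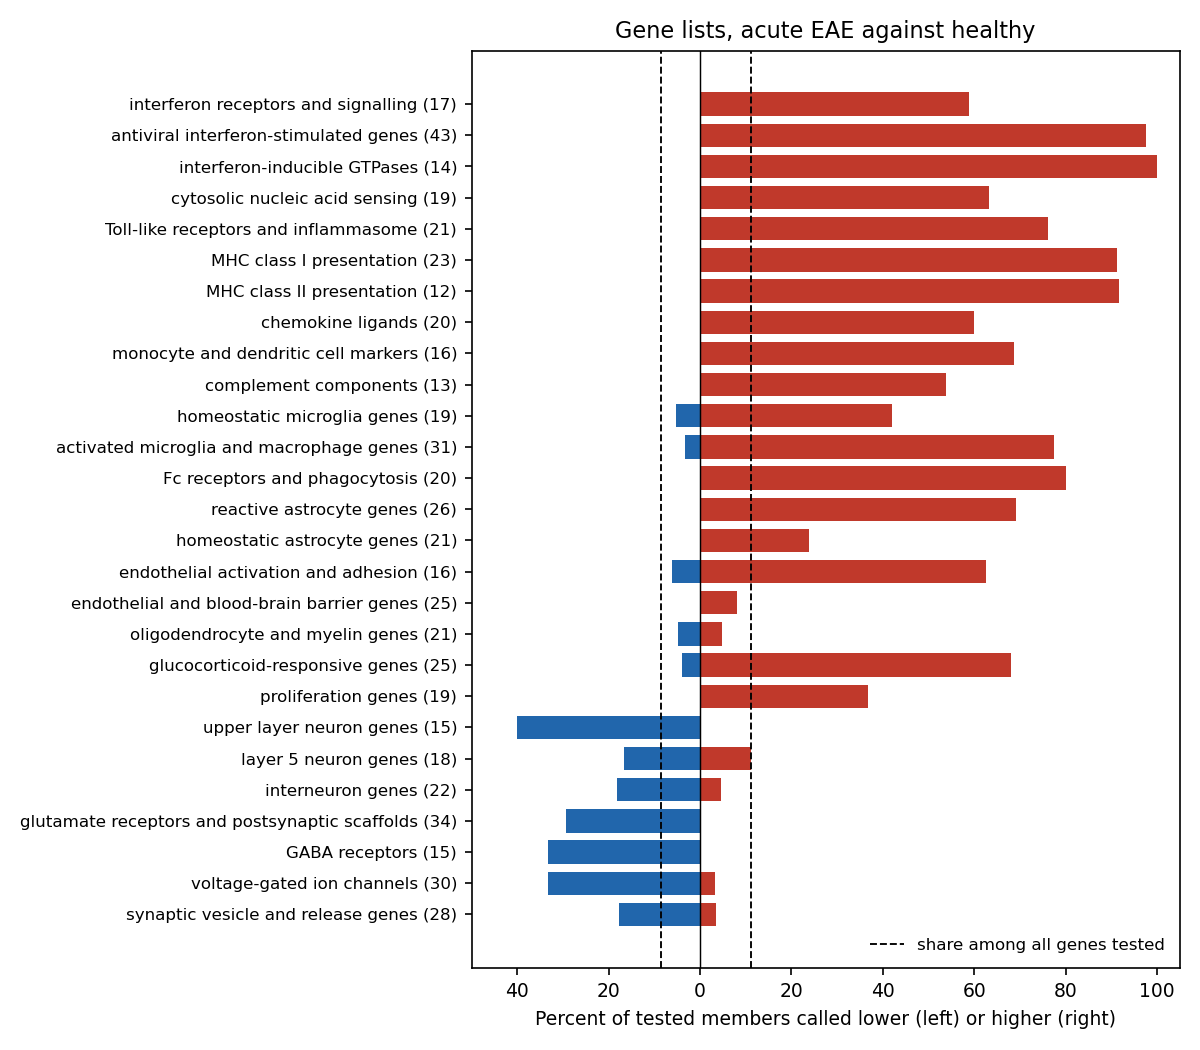
Percent of the tested members of each gene list that were called higher (red bars, right) or lower (blue bars, left), with the number tested in brackets. Dashed lines mark the share among all genes, 11.1% higher and 8.59% lower. The bars of interferon-inducible GTPases and antiviral genes reach 100% and 97.7%, and the longest blue bar, of upper layer neuron genes, reaches 40%.

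The interferons themselves were hardly detected. All 11 listed interferon genes were under the filter, and their summed level was at most 0.0555 CPM in healthy and 0.366 CPM in acute libraries. Ifnb1, the type I interferon first made by many cells, had 0 counts in all 14 input libraries, which allows up to 3 counts per library. Ifng, the type II interferon of T cells and natural killer cells, had 0 counts in healthy libraries and 0.366, 0.0717, 0.0489, 0 and 0.052 CPM in acute 1 to 5. It was thus seen in 4 of 5 acute libraries and was highest in acute 1, and it was under the filter.

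Receptor chains gave no call, and transcription factors below them rose. Of 17 receptor and signalling genes, 10 rose and none fell, with a median log2 change of 0.41. Ifnar1, Ifnar2, Ifngr1 and Ifngr2 were not called. Ifnar1 of the type I receptor was at 25.9 to 30.9 CPM in healthy and 22.3 to 27.4 CPM in acute libraries (log2 change -0.14 ± 0.08, adjusted p = 0.258), and Ifngr1 of the type II receptor at 4.001 to 6.88 and 5.91 to 9.78 CPM (log2 change 0.41 ± 0.21, adjusted p = 0.185). The kinase gene Jak1 did not pass either (log2 change -0.08 ± 0.07, adjusted p = 0.401).

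Stat2 and Irf9, which join in the factor that carries the type I signal to the nucleus, rose by log2 changes of 1.20 ± 0.11 and 2.28 ± 0.18 (here and below ± is the standard error of the fit, with n = 5 per group). Irf7, the factor that amplifies type I interferon production, had the largest rise of the list: 1, 3.29, 1.13, 0.921 and 0.998 CPM in healthy against 37.03, 22.7, 47.2, 24.5 and 20.9 CPM in acute libraries (log2 change 4.37 ± 0.36, adjusted p = 4.82e-06). Healthy 2 was the highest healthy library and still lay more than 6 times under the lowest acute one. Irf1, induced mainly by the type II interferon, and Irf8, a factor of myeloid cells that microglia need, rose as well, Irf1 from 4.9–6.402 to 21.9–41.2 CPM (2.48 ± 0.22) and Irf8 from 5.15–6.04 to 15.5–26.5 CPM (1.84 ± 0.14). Neither gene's groups overlapped.

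Genes that dampen the signal rose with it. Among 10 such brakes 5 rose and 1 fell, 2 without healthy 3, acute 1 or both healthy 3 and acute 5, with a median of 0.70. Usp18, which removes ISG15 from proteins and blocks the type I receptor, went from 0.608 ± 0.412 to 11.4 ± 4.31 CPM (mean ± SD, log2 change 4.21 ± 0.41, adjusted p = 9.11e-06). Trim30a, an inhibitor of NF-kB signalling, rose by 3.48 ± 0.30 and Socs1, which blocks JAK kinases, by 1.95 ± 0.29. Socs2, best known as a brake on growth hormone signalling, was the 1 that fell, from 22.5–29.05 to 19.1–21.8 CPM (log2 change -0.32 ± 0.08, adjusted p = 0.00745), with no overlap between groups.

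Nearly all listed targets of interferon rose. Of 43 antiviral genes 42 rose, 97.7% against 11.1% of all genes, with a median log2 change of 2.67. Adar, the RNA-editing enzyme of which 1 isoform is interferon-induced, was the exception at 217 to 235 CPM in healthy and 219.8 to 239 CPM in acute libraries (log2 change 0.04 ± 0.04, adjusted p = 0.488). Ifit3, an antiviral protein that binds partner IFIT proteins, was at 6.802, 10.9, 7.43, 7.8 and 7.21 CPM in healthy 1 to 5 and 67.8, 43.7, 91.4, 53.1 and 47.2 CPM in acute 1 to 5 (log2 change 2.92 ± 0.25, adjusted p = 8e-06). Isg15, a small protein attached to others like ubiquitin, was at 1.55, 2.03, 1.35, 1.62 and 2.38 CPM and 43.9, 22.3, 52.8, 21.9 and 21.3 CPM (log2 change 4.18 ± 0.35, adjusted p = 5.25e-06). In both genes acute 1 and acute 3 were high, the other acute libraries were close to each other, and all 5 lay above every healthy library.

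Acute 3 was also the highest library for other targets. Oasl2, an antiviral relative of the 2'-5' oligoadenylate synthetases, ranged over 40.7 to 83.6 CPM in acute and 1.4 to 3.95 CPM in healthy libraries (log2 change 4.67 ± 0.39, adjusted p = 7.19e-06). Bst2, which tethers budding virus to the cell, ranged over 15.4 to 31.3 CPM against 0.8502 to 2.196 CPM (3.98 ± 0.39). Ifitm3, which keeps virus from entering cells and was the highest of the list per kilobase in acute libraries (51.8 CPM per kilobase), rose from 3.18–5.24 to 25.7–46.2 CPM (3.12 ± 0.19). Ifi27, at a higher level in healthy cortex than these, rose less, from 22.2–26.8 to 52.4–65.2 CPM (log2 change 1.31 ± 0.09, adjusted p = 6.84e-08).

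Interferon-inducible GTPases, which attack the vacuoles of intracellular parasites, had the largest median log2 change of all lists. Of 18 listed genes 14 passed the filter, and all 14 rose, by log2 changes of 2.87 to 6.94 with a median of 4.45. Irgm1, which regulates the other members, was at 10.2, 10.05, 9.12, 8.18 and 9.15 CPM in healthy and 109, 72.2, 127, 89.7 and 82.04 CPM in acute libraries (log2 change 3.36 ± 0.22, adjusted p = 1.19e-06). Gbp2 was at 0.9003, 1.098, 0.451, 0.812 and 0.665 CPM and 49.2, 23.5, 50.7, 30.5 and 28.6 CPM (log2 change 5.52 ± 0.41, adjusted p = 2.12e-06). Iigp1 was at 0.7502, 0.933, 0.563, 0.325 and 0.665 CPM and 73.6, 37.9, 85.6, 44.1 and 39.2 CPM (log2 change 6.42 ± 0.52, adjusted p = 6.33e-06). The groups lay far apart in all these genes, by more than 7 times for Irgm1 and over 20 times for Gbp2 between the highest healthy and the lowest acute library. Tgtp2 (6.94 ± 0.75), Ifi47 (5.22 ± 0.51), Irgm2 (4.44 ± 0.33) and Gbp3 (4.31 ± 0.32) belong to the same families. Their members are close copies of each other, so reads may be split between them and single members are less certain than the group.

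The promoters of these targets are shown because interferon acts on short DNA elements in them. The interferon-stimulated response element (ISRE) was searched as GAAA, any 2 bases and GAAA again, and the gamma-activated site (GAS), bound by STAT dimers, as TTCNNNGAA, on both strands, in the 250 bases before each RefSeq start (build GRCm38.p6); the GAS letters read the same on both strands, and matches may overlap. Of 12012 tested genes with such a window, 3.26% held the ISRE letters, as did 7.43% of 1386 genes that rose, 17.4% of 386 that rose more than 2-fold, 2.83% of 1026 that fell and 2.71% of 9601 that were not called. Among the antiviral genes 12 of 31 held them (38.7%), and among the GTPases 8 of 9 (88.9%), whose promoters can be copies of each other as the genes are. The GAS letters were in 7.13% of the 12012 genes, in 11.4% of genes that rose more than 2-fold and in 5 of 9 GTPases. A gene was counted when any of its windows held the letters. A match is a description of the letters and not a site shown to be used. The genes below are a selection, and only windows that held a match are printed, so they do not show how often matches occur. The windows below are written 5′ to 3′ on the gene's strand, ending at the base before the start, with the matched letters or their complement in capitals: the ISRE in the first 6 and the GAS in Irf1.
Ifit3, chr19:34583279-34583528, plus strand: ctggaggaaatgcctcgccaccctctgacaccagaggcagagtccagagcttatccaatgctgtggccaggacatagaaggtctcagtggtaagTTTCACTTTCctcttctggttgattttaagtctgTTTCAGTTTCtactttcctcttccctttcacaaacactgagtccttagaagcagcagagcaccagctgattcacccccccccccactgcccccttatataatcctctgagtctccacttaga
Isg15, chr4:156200819-156201068, minus strand: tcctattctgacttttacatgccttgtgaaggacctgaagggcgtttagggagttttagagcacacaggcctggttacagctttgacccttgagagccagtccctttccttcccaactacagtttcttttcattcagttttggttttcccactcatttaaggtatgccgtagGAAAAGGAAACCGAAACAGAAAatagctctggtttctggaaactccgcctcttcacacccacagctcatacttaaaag
Bst2, chr8:71537473-71537722, minus strand: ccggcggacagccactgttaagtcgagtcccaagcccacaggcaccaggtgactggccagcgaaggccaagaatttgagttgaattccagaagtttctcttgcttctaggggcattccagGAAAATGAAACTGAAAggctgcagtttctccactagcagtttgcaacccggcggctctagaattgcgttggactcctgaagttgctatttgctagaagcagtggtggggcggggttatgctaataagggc
Gbp2, chr3:142620413-142620662, plus strand: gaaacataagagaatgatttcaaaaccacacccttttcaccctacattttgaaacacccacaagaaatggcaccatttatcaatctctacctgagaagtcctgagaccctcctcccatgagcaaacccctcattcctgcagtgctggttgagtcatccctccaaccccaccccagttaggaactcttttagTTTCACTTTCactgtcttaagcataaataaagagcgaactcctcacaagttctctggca
Irgm1, chr11:48871421-48871670, minus strand: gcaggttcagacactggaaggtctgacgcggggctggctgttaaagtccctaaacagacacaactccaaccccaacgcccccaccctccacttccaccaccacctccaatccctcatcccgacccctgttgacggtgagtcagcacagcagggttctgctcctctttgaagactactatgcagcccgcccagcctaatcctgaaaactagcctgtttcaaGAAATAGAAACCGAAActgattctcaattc
Cxcl10, chr5:92348890-92349139, minus strand: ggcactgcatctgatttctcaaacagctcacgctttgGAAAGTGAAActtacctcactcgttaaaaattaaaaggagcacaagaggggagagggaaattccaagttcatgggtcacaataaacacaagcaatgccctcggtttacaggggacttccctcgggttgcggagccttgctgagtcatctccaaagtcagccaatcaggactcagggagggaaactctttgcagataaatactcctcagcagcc
Irf1, chr11:53769764-53770013, plus strand: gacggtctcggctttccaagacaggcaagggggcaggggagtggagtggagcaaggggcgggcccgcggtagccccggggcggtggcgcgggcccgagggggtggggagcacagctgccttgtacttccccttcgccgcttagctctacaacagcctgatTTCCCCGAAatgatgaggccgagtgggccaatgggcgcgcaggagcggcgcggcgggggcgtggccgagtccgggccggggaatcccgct

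Ifit3 held 2 separate matches, 113 and 147 bases before the start at their near ends. Isg15 held 3 overlapping matches, the nearest 57 bases before the start, and Bst2 and Irgm1 held 2 overlapping ones, the nearest 115 and 15 bases before it. Gbp2 and Cxcl10 held 1 each, 50 and 204 bases before the start, and the GAS of Irf1 lay 82 bases before it.

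**Figure D4:**
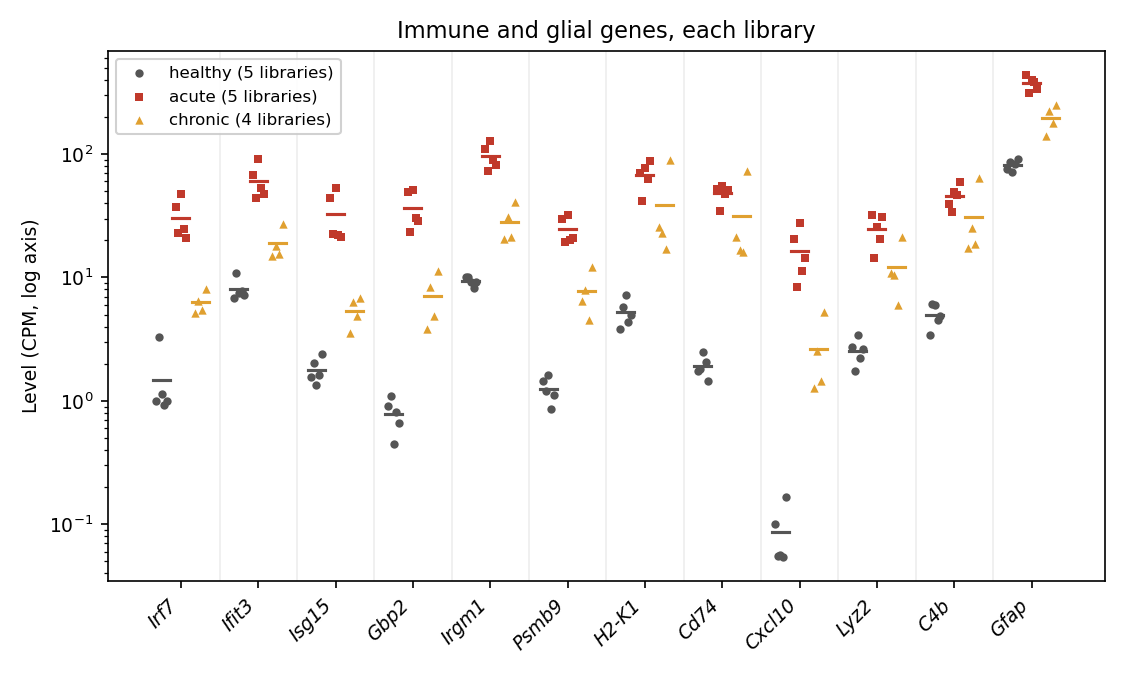
Level of 12 immune and glial genes in each input library, in CPM on a log axis, with healthy libraries as grey circles, acute as red squares, chronic as yellow triangles and group means as bars. Every acute library lies above every healthy one for all 12 genes, for example at 43.7 to 91.4 CPM against 6.80 to 10.9 CPM for Ifit3; the chronic library that stands high for H2-K1 and Cd74 is chronic 4.

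Sensors of DNA and RNA rose in part. Of 19 tested genes of cytosolic nucleic acid sensing 12 rose and none fell, with a median of 1.34. Sting1, the adaptor below the DNA sensor cGAS, was at 0.7002, 0.329, 0.732, 0.487 and 0.998 CPM in healthy and 1.88, 2.19, 2.299, 1.32 and 3.02 CPM in acute libraries (log2 change 1.71 ± 0.31, adjusted p = 0.000631). It was low in all 10 libraries, and the groups did not overlap. The kinase Tbk1, which STING and other adaptors activate, did not pass (log2 change -0.12 ± 0.07, adjusted p = 0.236). The DNA-binding p200 proteins had larger rises: Ifi204 went from 0.05001–0.394 to 4.63–9.002 CPM (5.35 ± 0.37), Ifi209 from 0–0.222 to 2.65–6.36 CPM (5.67 ± 0.47), and Ifi205, with 0 healthy counts, was at least 41.99-fold higher taking 3 counts summed over the healthy libraries as its floor. Such floors, and the counting intervals below, cover counting error only.

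Effectors of lytic cell death rose with the sensors. Zbp1, a sensor of Z-form nucleic acids that triggers necroptosis, was at 0.3001, 0.0549, 0.0563, 0 and 0.222 CPM in healthy and 14.8, 6.42, 14.04, 9.61 and 7.75 CPM in acute libraries (log2 change 6.27 ± 0.52, adjusted p = 1.92e-06). Mlkl, which opens the membrane in necroptosis, rose from 0–0.113 to 0.646–1.57 CPM (4.03 ± 0.54). Gsdmd, the pore protein of pyroptosis, rose from 0.665–1.2 to 3.57–6.31 CPM (log2 change 2.30 ± 0.22, adjusted p = 7.9e-07), and Casp4, the caspase that cleaves it after sensing bacterial lipid, by 3.28 ± 0.46. None of these genes overlapped between groups. Of 23 tested cell death genes 10 rose and none fell (median 0.37), and 1 fell with the offset for length. Among 21 genes of Toll-like receptors and the inflammasome 16 rose and none fell (median 0.99), including Tlr2, a receptor for bacterial lipoproteins (2.81 ± 0.41), the inflammasome adaptor Pycard (1.95 ± 0.23) and the shared adaptor Myd88 (0.83 ± 0.14). In this list 12 to 15 rose in the fits that left out 1 library, and 14 of 20 without healthy 3 and acute 5.

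Antigen presentation rose in both classes. For MHC class I, which presents cytosolic peptides to CD8 T cells, 21 of 23 genes rose and none fell, with a median of 2.13. Nlrc5, the transactivator of these genes, was at 0.6002, 0.549, 0.394, 0.433 and 0.444 CPM in healthy and 14.7, 10.1, 19.03, 10.4 and 8.84 CPM in acute libraries (log2 change 4.68 ± 0.29, adjusted p = 5.58e-08). The light chain gene B2m was at 32.6, 29.4, 37.8, 30.4 and 32.1 CPM and 173, 113, 166, 145 and 174 CPM (log2 change 2.25 ± 0.31, adjusted p = 0.000384). Both genes separated the groups completely, and acute 2 was among the lowest acute libraries. The heavy chain genes H2-K1 (3.801–7.15 to 41.5–87.97 CPM, 3.71 ± 0.49), H2-D1 (2.62 ± 0.40) and H2-Q6 (4.87 ± 0.69) rose too, with the reservation that reads of these near-identical genes may be split. Psmb8 and Psmb9, subunits of the immunoproteasome that cuts the peptides, rose from 1.3–2.36 to 23.9–46.9 CPM (4.39 ± 0.33) and from 0.867–1.63 to 19.5–32.2 CPM (4.28 ± 0.29).

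For MHC class II, which presents taken-up peptides to CD4 T cells and is carried by professional presenting cells, 11 of 12 tested genes rose (median 2.80). Without healthy 3 and acute 5, 9 of 11 rose. In the fits that left out 1 library, each filtered anew, 8 to 13 rose. Cd74, the invariant chain, was at 1.75, 1.81, 2.48, 2.06 and 1.44 CPM in healthy and 52.4, 34.2, 54.9, 47.5 and 50.7 CPM in acute libraries (log2 change 4.65 ± 0.51, adjusted p = 7.33e-05). The chains H2-Aa (0.275–0.957 to 11.8–23.6 CPM, 5.06 ± 0.56) and H2-Ab1 (0.165–0.788 to 9.54–15.5 CPM, 5.06 ± 0.66) rose with it, as did the transactivator Ciita (2.91 ± 0.34) and the lysosomal reductase Ifi30 (2.69 ± 0.32). No library of one group reached the other in these 5 genes. H2-DMa, a peptide loader, was the gene not called (log2 change 0.32 ± 0.14, adjusted p = 0.127). Healthy 3 was its highest healthy library, and without healthy 3 it passed (log2 change 0.48, adjusted p = 0.00761). In whole tissue, more cells of a type and more RNA per cell cannot be told apart.

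Several chemokines that attract leukocytes rose from near 0. The summed level of all listed ligands was 672 to 878 CPM in healthy and 770 to 973 CPM in acute libraries. Of 20 tested ligands 12 rose, 8 were not called and none fell (median 2.42), though 1 fell without healthy 3, without acute 5 or without both. Cxcl10, a ligand of the T cell receptor CXCR3, was at 0.1, 0.0549, 0.0563, 0.0542 and 0.166 CPM in healthy and 20.4, 8.39, 27.8, 11.2 and 14.3 CPM in acute libraries (log2 change 7.46 ± 0.67, adjusted p = 7.28e-06). Every healthy library was under 0.2 CPM and every acute library above 8 CPM. Cxcl9, another CXCR3 ligand, rested on 1 healthy count and had a ratio of 562 (95% counting interval 101 to 22242). Ccl5, which attracts T cells and monocytes, rested on 3 healthy counts with a ratio of 307 (95% counting interval 105 to 1492), and acute 1 (18.5 CPM) was above the other acute libraries (6.96 to 9.49 CPM). Among the monocyte attractants, Ccl2 was at 0 to 0.111 CPM in healthy and 1.399 to 3.86 CPM in acute libraries (5.65 ± 0.56), Ccl12 at 0.05001 to 0.384 and 2.91 to 4.89 CPM (3.93 ± 0.31), and Ccl8 had a ratio of 149 (95% counting interval 40.9 to 1234). Of 10 tested chemokine receptors 3 rose (30% against 11.1% of all genes), among them the CCL2 receptor Ccr2 (0.0555–0.5001 to 1.102–2.09 CPM, log2 change 2.41 ± 0.39, adjusted p = 0.000185).

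Of 18 tested cytokines 4 rose (22.2% against 11.1% of all genes) and 1 fell (5.56% against 8.59%), with a median of 0.17. Il1a and Il1b, the interleukin-1 ligands, rose from 0.222–0.732 to 1.301–2.46 CPM (1.82 ± 0.34) and from 0.271–0.6002 to 0.793–2.93 CPM (1.92 ± 0.36). Il1rn, the natural antagonist of their receptor, had 0 healthy counts and was at least 32.7-fold higher, at 0.624 to 1.86 CPM. Csf1, a growth factor for microglia and macrophages, rose by 0.67 ± 0.16, and Il33, an alarmin of oligodendrocytes and astrocytes in brain, fell from 56.7–69.4 to 47.1–51.8 CPM (log2 change -0.32 ± 0.07, adjusted p = 0.00293). Tnf and Il6 were under the filter, Tnf at 0.208 to 1.15 CPM in acute libraries with a ratio of 45.7 (95% counting interval 7.85 to 1836), and Il6 at up to 0.143 CPM with a ratio of 3.38 (95% counting interval 0.675 to 32.7) that holds 1.

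Receptors of cytokines and acute phase genes had 23 of 33 members higher and none lower (median 1.12). Lcn2, a secreted protein that binds bacterial iron carriers (GRCm38 chromosome 2, 32384633 to 32388252), was at 0 in all 5 healthy libraries and at 4.603, 2.76, 4.16, 6.61 and 6.55 CPM in acute 1 to 5. Saa3, an acute phase protein, rested on 1 healthy count with a ratio of 156 (95% counting interval 27.7 to 6211). Serpina3n, a protease inhibitor of reactive astrocytes, rose from 6.31–8.79 to 13.3–25.96 CPM (log2 change 1.45 ± 0.24, adjusted p = 0.000774), and Cp, the copper-carrying ferroxidase, by 1.57 ± 0.19. In the NF-kB pathway, 10 of 19 genes rose and 1 fell (median 0.36), led by the feedback inhibitor Nfkbia (20.4–27.3 to 37.2–44.5 CPM, 0.75 ± 0.10) and its relative Bcl3 (2.42 ± 0.34).

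Markers of blood leukocytes were low, and those of myeloid cells rose most. Of 22 monocyte and dendritic cell markers 16 passed the filter and 11 rose (median 2.52), or 7 without acute 3. Their summed level was 24.8 to 28.8 CPM in healthy and 50.6 to 84.4 CPM in acute libraries. Plac8, a gene of circulating monocytes, rested on 3 healthy counts, all in healthy 3, and was at 8.37, 2.48, 6.898, 4.41 and 3.902 CPM in acute 1 to 5, a ratio of 154 (95% counting interval 52.3 to 747). Ly6c2, which marks inflammatory monocytes, had 0 healthy counts and 0.5202 to 2.16 CPM in acute libraries, at least 45.1-fold higher. Chil3, made by recruited monocytes and neutrophils, likewise had 0 healthy counts and was at 0.538 to 3.505 CPM, at least 41.4-fold higher. Lyz2, lysozyme of myeloid cells, was at 2.75, 1.76, 3.44, 2.22 and 2.61 CPM and 32.1, 14.4, 25.5, 20.6 and 30.9 CPM (log2 change 3.27 ± 0.36, adjusted p = 5.14e-05), with no overlap.

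Of 13 neutrophil markers 4 passed the filter and 3 rose, with a summed level of 2.70 to 4.39 CPM in healthy and 11.1 to 21.3 CPM in acute libraries. S100a8 and S100a9, which form the neutrophil protein calprotectin, were at 1.94, 0.933, 1.32, 4.19 and 2.55 CPM and 1.36, 1.47, 1.71, 5.69 and 2.91 CPM in acute 1 to 5, and at no more than 0.222 and 0.329 CPM in healthy libraries (4.73 ± 0.57 and 3.97 ± 0.53). Acute 4 was highest for both and also for Ngp, a granule protein at 0.262, 0.143, 0.489, 1.81 and 0.572 CPM. The neutrophil surface gene Ly6g was at 0 in all 10 libraries.

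Lymphocyte markers were near the limit of detection. Of 28 T cell and natural killer cell markers 7 passed the filter, and 2 rose (28.6% against 11.1% of all genes), among them the kinase Lck. Without any filter, 11 of the T cell and natural killer cell markers and 8 neutrophil markers were called higher. The summed level of the list did not separate the groups (34.6 to 42.7 CPM in healthy, 34.2 to 46.2 CPM in acute libraries) and was mostly Trbc2 and Cd4, at healthy means of 21.3 and 9.77 CPM. Of the defining markers, Cd3g had 0 healthy counts and 0.889, 0.466, 0.245, 0.441 and 0.312 CPM in acute 1 to 5, and Cd8a had 1 healthy count and 0.68, 0.215, 0.978, 0.2204 and 0.208 CPM. Cd3e was at 0 to 0.2001 CPM in healthy and 0.209 to 0.636 CPM in acute libraries. These 3 genes of the T cell receptor complex and its coreceptor were under the filter on low counts, and the groups overlapped in none of them. Cd4, which myeloid cells and neurons can also express, was not called and was lower (log2 change -1.06 ± 0.37, adjusted p = 0.0636); it passed without healthy 1 (adjusted p = 0.0315) and in DESeq2's Wald test (adjusted p = 0.0272). Lck was not called without healthy 2, 3 or 4 or acute 1 or 3, nor without both healthy 3 and acute 5 (adjusted p = 0.0642), and 1 of the 7 markers was called in each of these fits and without acute 5. None of the 4 tested B cell markers rose, and Ms4a1, a surface protein of B cells, was at 0, 0, 0, 0 and 0.156 CPM in acute 1 to 5 and at 0 in all healthy libraries. Ighm, the mu heavy chain, fell (log2 change -0.36 ± 0.11, adjusted p = 0.0319), though not in 7 of the 10 fits that left out 1 library, those without healthy 2, 4 or 5 or acute 1, 2, 3 or 4.

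Complement genes rose with the myeloid genes. Of 13 tested components 7 rose and none fell (median 1.44), and of 14 regulators and receptors 6 rose and none fell (median 0.75). C4b, shared by the classical and lectin pathways, was at 3.401, 6.04, 5.97, 4.55 and 4.82 CPM in healthy and 39.1, 33.9, 49.1, 46.4 and 58.99 CPM in acute libraries (log2 change 3.20 ± 0.39, adjusted p = 0.000158). C3, where all pathways meet, rose from 0–0.222 to 2.296–6.19 CPM (log2 change 5.06 ± 0.66, adjusted p = 8.49e-05). The 3 chains of C1q, made in brain by microglia, rose alike: C1qa by 2.05 ± 0.36, C1qb by 2.44 ± 0.32 and C1qc by 1.92 ± 0.28. Acute 5 was the highest acute library for C4b, C3 and all 3 C1q chains. Serping1, the inhibitor of C1, rose from 1.3–2.58 to 4.77–10.96 CPM (2.09 ± 0.28).

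Most listed genes of activated microglia rose. Of 31 genes of activated microglia and macrophages 24 rose and 1 fell (median 1.58). Ncf1, a subunit of the oxidase that makes superoxide, was at 5.902, 4.45, 3.999, 4.87 and 4.38 CPM in healthy and 15.8, 14.4, 17.9, 16.3 and 16.6 CPM in acute libraries (log2 change 1.77 ± 0.10, adjusted p = 6.84e-09). Its acute values lay within 14.4 to 17.9 CPM, a narrow range beside that of the interferon targets. Cybb, the catalytic subunit of the same oxidase, rose from 0–0.165 to 1.97–4.39 CPM (4.87 ± 0.50), and Cd52, a surface glycopeptide of leukocytes, from 0.433–0.879 to 5.99–9.89 CPM (3.54 ± 0.32). Lpl, lipoprotein lipase, was the 1 that fell (log2 change -0.56 ± 0.17, adjusted p = 0.0319), but not with the offset for length (adjusted p = 0.0706) or in 7 of 10 fits that left out 1 library, those without healthy 3, 4 or 5 or acute 1, 2, 3 or 4. Apoe, the main lipid carrier of brain, was not called at 173 to 480.2 CPM in healthy and 296 to 883 CPM in acute libraries (log2 change 0.85 ± 0.40, adjusted p = 0.167). Healthy 3 and acute 5 were its highest values.

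Of 19 homeostatic microglial genes 8 rose and 1 fell (median 0.36). Without acute 5, 4 rose and 2 fell, and 2 fell without healthy 3 and acute 5 together. Crybb1, a crystallin that marks microglia, rose from 1.802–3.62 to 9.22–11.5 CPM (log2 change 1.79 ± 0.15, adjusted p = 1.85e-07), and Olfml3 by 1.07 ± 0.21. P2ry12, the ADP receptor by which resting microglia sense injury, was at 6.95, 7.03, 9.52, 7.26 and 7.04 CPM in healthy and 4.66, 5.38, 4.16, 5.77 and 6.03 CPM in acute libraries (log2 change -0.54 ± 0.16, adjusted p = 0.0192). The groups did not overlap, but the call was lost without healthy 3 (adjusted p = 0.0522) or acute 3 (adjusted p = 0.0571). Fc receptors and genes of phagocytosis had 16 of 20 members higher and none lower (median 1.66). Fcgr4, a receptor for antibody, had 0 healthy counts and 1.67, 1.69, 1.71, 2.03 and 2.19 CPM in acute 1 to 5, at least 56.9-fold higher.

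Many astrocyte genes of reactivity rose. Among 26 reactive genes 18 rose and none fell, with a median of 1.08. Gfap, the intermediate filament of astrocytes (GRCm38 chromosome 11, 102887336 to 102900912), was at 75.6, 85.5, 71.9, 83.2 and 91.2 CPM in healthy and 437, 314, 397, 386 and 338 CPM in acute libraries (log2 change 2.20 ± 0.15, adjusted p = 1.4e-06). The lowest acute library was over 3 times the highest healthy one. Vim, the filament protein that pairs with it and is shared with vessels and microglia, rose from 13.7–18.2 to 43.2–80.1 CPM (1.78 ± 0.18), and Aspg, an asparaginase induced in reactive astrocytes, by 1.45 ± 0.18. Of 21 homeostatic genes 5 rose (23.8% against 11.1% of all genes) and none fell (median 0.52). They included Aldoc, an astrocytic glycolytic enzyme (523–645 to 778–914 CPM, log2 change 0.52 ± 0.06, adjusted p = 3e-06), Ndrg2 (0.53 ± 0.06), the gap junction gene Gjb6 (0.97 ± 0.21) and Glul, which turns glutamate into glutamine (0.36 ± 0.05). The glutamate transporter Slc1a2 did not pass, at 489 to 686 and 512 to 847 CPM (log2 change 0.11 ± 0.17, adjusted p = 0.702).

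Among the vascular lists, calls were mainly in that of endothelial activation and adhesion, which also holds leukocyte genes such as Itga4. Of 25 endothelial and blood-brain barrier genes 2 rose, near the background share, and the median was 0.06. The tight junction gene Cldn5 was at 2.76 to 5.802 CPM in healthy and 4.403 to 5.77 CPM in acute libraries (log2 change 0.16 ± 0.17, adjusted p = 0.561). The 2 that rose were Ly6c1, an endothelial surface protein (log2 change 0.81 ± 0.18, adjusted p = 0.00313), and Mfsd2a, the lipid transporter of the barrier (3.35–5.63 to 6.49–15.1 CPM, log2 change 1.12 ± 0.26, adjusted p = 0.00679). The list of endothelial activation and adhesion had a summed level of 188 to 250 CPM in healthy and 187 to 240 CPM in acute libraries. Of its 16 tested genes 10 rose and 1 fell (median 0.87). This count was unstable, at 6 without healthy 1, 2 or 3 or acute 4 or 5, 5 without healthy 5, and 6 without both healthy 3 and acute 5. Icam1, an adhesion ligand for leukocytes, rose from 0.166–0.9003 to 1.45–3.09 CPM (log2 change 2.49 ± 0.36, adjusted p = 5.9e-05), and Lrg1, a glycoprotein of activated endothelium, from 1.97–2.69 to 4.13–8.55 CPM (log2 change 1.38 ± 0.20, adjusted p = 5.5e-05), and both kept their calls in all alternatives. Itga4, an integrin chain of leukocytes, was the 1 that fell (log2 change -0.36 ± 0.12, adjusted p = 0.046). It was not called with the offset for length (adjusted p = 0.178) or without healthy 3 and acute 5 (adjusted p = 0.101), and 8 of 10 fits that left out 1 library did not call it, those without any healthy library but healthy 3 or any acute library but acute 4. Of 19 mural cell and fibroblast genes 2 rose (10.5% against 11.1% of all genes), or 4 without healthy 3 or acute 1. The 2 were Igf2, a growth factor of meninges and vessels (40.6–55.7 to 67.7–117 CPM, log2 change 1.07 ± 0.14, adjusted p = 0.000138), and the meningeal GABA transporter Slc6a13 (log2 change 0.81 ± 0.17, adjusted p = 0.00187).

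Myelin genes did not move as a group. Of 21 oligodendrocyte genes 1 rose and 1 fell, 4.76% each against 11.1% and 8.59% of all genes, with a median of -0.11. Mbp, the basic protein of myelin, was at 617 to 746 CPM in healthy and 686 to 836 CPM in acute libraries (log2 change 0.12 ± 0.08, adjusted p = 0.346). Mobp, another myelin protein, rose from 222–265 to 286–336 CPM (log2 change 0.34 ± 0.06, adjusted p = 0.000286), and Aspa, which releases acetate for myelin lipids, fell from 16.97–22.4 to 11.6–16.5 CPM (log2 change -0.44 ± 0.10, adjusted p = 0.00329). The number of oligodendrocyte genes that fell was 4 without acute 1. Of 12 precursor genes only the lineage factor Olig1 was called, and it rose (log2 change 0.29 ± 0.05, adjusted p = 0.000407).

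Glucocorticoid-responsive genes, which adrenal stress hormones induce, had 17 of 25 members higher and 1 lower (median 0.75). Fkbp5, a chaperone of the glucocorticoid receptor and a standard readout of its activity, was at 39.4, 46.4, 49.6, 49.9 and 51.7 CPM in healthy and 72.2, 82.97, 101, 139 and 133 CPM in acute libraries (log2 change 1.16 ± 0.17, adjusted p = 0.00053). Acute 4 and acute 5 were highest and acute 1 lowest, an order unlike that of the interferon targets. Cebpd rose from 3.901–6.77 to 14.9–22.8 CPM (log2 change 1.79 ± 0.16, adjusted p = 4.59e-07), and Tsc22d3, an anti-inflammatory target, from 91.03–109 to 116–178 CPM (log2 change 0.58 ± 0.09, adjusted p = 0.000269). The sulfotransferase Sult1a1 (1.40 ± 0.16) and the metallothioneins Mt1 (0.75 ± 0.07) and Mt2 (0.76 ± 0.09) rose as well, and some of these genes also answer to cytokines. Nr3c1, the receptor itself, fell from 111–139.7 to 80.01–121 CPM (log2 change -0.38 ± 0.09, adjusted p = 0.00743), with overlap between groups.

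Neuronal genes changed by small amounts, more of them downward. Of 15 upper layer genes 6 fell and none rose, 40% against 8.59% of all genes, with a median of -0.22. Calb1, a calcium buffer of upper layer and some inhibitory neurons, was at 236, 213, 226, 226 and 236 CPM in healthy and 185, 192, 177, 189.5 and 188 CPM in acute libraries (log2 change -0.29 ± 0.04, adjusted p = 2.51e-05). Rorb, a nuclear receptor that marks layer 4, was at 56.02, 61.1, 49.1, 63.2 and 61.8 CPM and 40.6, 37.7, 40.4, 34.1 and 36 CPM (log2 change -0.63 ± 0.11, adjusted p = 0.000561). Neither gene's groups overlapped, and the change was small beside those of the immune genes. Mef2c, an activity-dependent transcription factor, fell with overlap (log2 change -0.34 ± 0.09, adjusted p = 0.0129). The count of 6 was the same with the offset for gene length and was 7 without healthy 3 and acute 5. It ran from 4 to 7 in the fits that left out 1 library.

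Lists of deeper layer genes had calls in both directions. Of 18 layer 5 genes 2 rose (11.1%, the share of all genes) and 3 fell (16.7% against 8.59%), with a median of -0.02. Of 13 layer 6 genes 2 rose (15.4%) and 3 fell (23.1%), with a median of -0.07. These counts turned on single libraries: 4 layer 5 genes rose without healthy 5, acute 1, acute 5 or both healthy 3 and acute 5, 1 layer 5 gene fell without healthy 4 or acute 4 or with the offset, and 1 layer 6 gene fell without acute 4. Among 22 interneuron genes 1 rose (4.55% against 11.1% of all genes) and 4 fell (18.2% against 8.59%), with a median of 0.01. With the offset 2 rose and 2 fell, 2 fell without healthy 4 or acute 2, 3, 4 or 5, and none rose and 1 fell without healthy 3 and acute 5. The interneuron gene with the smallest p was Nos1, neuronal nitric oxide synthase, at 62.5, 60.6, 66.4, 56.5 and 66.4 CPM in healthy and 39.3, 45.6, 43.7, 49.8 and 45.3 CPM in acute libraries (log2 change -0.48 ± 0.08, adjusted p = 0.000464). No acute library reached the healthy range. Immediate early genes, which neuronal firing switches on, had 1 of 22 higher (4.55% against 11.1% of all genes). In that list 2 were lower (9.09% against 8.59%), and the median was -0.21. The number lower was 5 without healthy 4 and 1 without healthy 2 or 5, acute 1, 3, 4 or 5, or both healthy 3 and acute 5. Bdnf, a neurotrophin of that list, fell (log2 change -0.30 ± 0.07, adjusted p = 0.00679) with overlap of acute 1 and healthy 4.

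Receptor and channel genes were called lower in numbers that depended on the offset for length. Of 34 glutamate receptor and postsynaptic genes 10 fell and none rose (median -0.15), but 3 with the offset for length and 6 without healthy 3 and acute 5. Gria4, an AMPA receptor subunit, was at 76.6, 79.3, 83.97, 85.5 and 83.5 CPM in healthy and 60.7, 60.4, 61.3, 58.97 and 68.3 CPM in acute libraries (log2 change -0.40 ± 0.05, adjusted p = 2.05e-05). It kept its call in both alternatives. The scaffold gene Dlg2 fell (-0.32 ± 0.07), and Grin2b, an NMDA receptor subunit, fell too (-0.33 ± 0.07), the latter only without the offset (adjusted p = 0.176 with it). Shank3, another scaffold, fell (log2 change -0.31 ± 0.07, adjusted p = 0.00687), but not with the offset (adjusted p = 0.0551) or without healthy 3 and acute 5 (adjusted p = 0.0597).

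For inhibitory transmission, 5 of 15 GABA receptor genes fell and none rose (median -0.22), 5 with the offset, and 8 without acute 5 or in DESeq2's Wald test. The number that fell was 4 without healthy 3 and acute 5 and 4 to 8 in the fits that left out 1 library. Gabrb2, a subunit of the most common GABA-A receptor, was at 80.1, 91.5, 83.5, 96.6 and 102 CPM in healthy and 73.4, 70.8, 70.8, 72.5 and 56.8 CPM in acute libraries (log2 change -0.40 ± 0.07, adjusted p = 0.000734). Acute 5 was the lowest of its group. Gabra4 fell from 97.6–112 to 76.6–86.4 CPM (log2 change -0.36 ± 0.06, adjusted p = 0.000148), again with no overlap. Of 30 voltage-gated channel genes 10 fell and 1 rose (median -0.16), and 4 fell and 3 rose with the offset. The potassium channel genes Kcnq3, of the M current (-0.33 ± 0.05), and Kcnh7 (81.04–98.7 to 66.5–76.5 CPM, -0.36 ± 0.06) fell. Of 28 synaptic vesicle genes 5 fell (17.9% against 8.59% of all genes) and 1 rose (3.57% against 11.1%). The falls were led by the release-site protein Rims1 (-0.23 ± 0.06). With the offset 2 fell and none rose, and 2 or 3 fell without healthy 1 or 4 or acute 2, 3 or 4.

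The largest falls among genes with no overlap and an average of at least 2 CPM were mostly under 2-fold. Serpinb1a, an inhibitor of neutrophil proteases, was at 4.75, 5.22, 6.87, 6.66 and 5.16 CPM in healthy and 1.67, 2.04, 2.79, 1.45 and 2.65 CPM in acute libraries (log2 change -1.43 ± 0.18, adjusted p = 1.05e-05). Samd3 fell from 2.25–3.95 to 0.783–1.51 CPM (-1.36 ± 0.22) and Dach1, a transcription factor of development, from 7.702–18.4 to 4.59–7.02 CPM (-1.01 ± 0.19). These 3 were the only called genes named here with a fall past 2-fold. Slit2, an axon guidance ligand (GRCm38 chromosome 5, 47983155 to 48306282), had the smallest p of the group, at 23.1, 22.1, 25.2, 25.6 and 26.6 CPM in healthy and 13.4, 14.3, 14.6, 15.7 and 15.1 CPM in acute libraries (log2 change -0.74 ± 0.07, adjusted p = 1.19e-06). Its libraries were tight, and the groups did not overlap.

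Tnnc1, the slow troponin C gene, fell from 12.7–16.4 to 6.92–10.1 CPM (log2 change -0.74 ± 0.12, adjusted p = 0.000268). Slc40a1, the iron exporter ferroportin, fell from 3.24–4.101 to 1.63–2.39 CPM (log2 change -0.77 ± 0.20, adjusted p = 0.0099), and Slc17a8, a vesicular glutamate transporter, from 2.8–5.41 to 1.43–2.497 CPM (log2 change -0.80 ± 0.21, adjusted p = 0.0104). Wnt2b, a secreted signal (-0.75 ± 0.19), Fign, a microtubule-severing enzyme (-0.77 ± 0.16), Filip1 (-0.82 ± 0.18), Fam198b (-0.86 ± 0.16) and the axonemal dynein Dnah7b (-0.80 ± 0.22) completed the set, Dnah7b without a call when healthy 2 was left out (adjusted p = 0.0523). Healthy 3 was the highest healthy library for Dach1, Filip1, Slc17a8 and Wnt2b. Cdr1 (-0.95 ± 0.19) and Kcnq1ot1 (-0.95 ± 0.17) overlap transcripts of the other strand, and counts without strand cannot separate them.

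**Figure D5:**
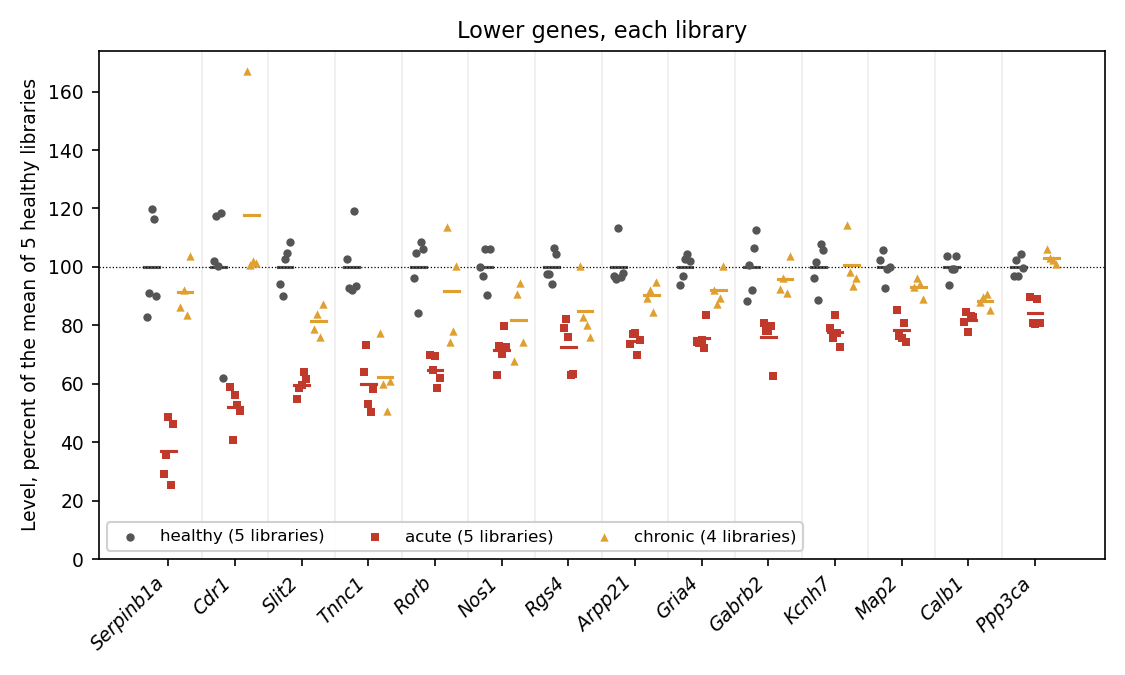
Level of 14 genes that fell, in each input library, as a percent of the mean of the 5 healthy libraries, with healthy libraries as grey circles, acute as red squares, chronic as yellow triangles and group means as bars; the axis starts at 0. Acute libraries lie below every healthy library for all 14 genes, and Serpinb1a lies lowest. No overlap was a condition for the genes ranked by size of fall.

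Among called genes with no overlap between groups, abundant ones had the largest rises by CPM. Fth1, the heavy chain of the iron store ferritin, was at 1516, 1536, 1466, 1494 and 1527 CPM in healthy and 2053, 1889.7, 1852, 1952 and 2032 CPM in acute libraries (log2 change 0.38 ± 0.04, adjusted p = 5.84e-07). Its light chain Ftl1 rose too, from 220–246 to 301–334 CPM (0.42 ± 0.05). Every acute library exceeded every healthy one for both, which this ranking required of its genes. Fam107a, an actin-binding protein of astrocytes and neurons, rose from 205–309 to 396–514 CPM (0.82 ± 0.10), and Mt3, the brain metallothionein, from 356–383 to 503–626 CPM (0.60 ± 0.05). Smaller rises were those of Tmsb4x, which binds actin monomers (0.21 ± 0.04), the elongation factor Eef1a1 (0.15 ± 0.03) and the glycolytic enzyme Aldoa (0.13 ± 0.03). Pcsk1n rose by 0.36 ± 0.10, but not without healthy 2 (adjusted p = 0.0517).

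Among called genes with no overlap between groups, the largest falls by level included neuronal genes. Ppp3ca, the catalytic subunit of calcineurin, was at 2095, 2210.3, 2092, 2258 and 2157 CPM in healthy and 1936, 1745, 1740.3, 1924 and 1748 CPM in acute libraries (log2 change -0.25 ± 0.04, adjusted p = 6.27e-05). Map2, a microtubule protein of dendrites, fell from 828–943 to 662–762 CPM (log2 change -0.35 ± 0.04, adjusted p = 7.65e-06), as did its relative Map1b (-0.27 ± 0.07). Rgs4, which shortens G protein signals, fell from 681–772 to 456–595 CPM (-0.46 ± 0.09), and Arpp21, a phosphoprotein of cortical and striatal neurons, from 606–717 to 442–491 CPM (-0.42 ± 0.05), with healthy 3 the highest. The traffic GTPases Rab3c (-0.36 ± 0.06) and Rab6a (-0.23 ± 0.04), the ubiquitin ligase Pja2 (-0.28 ± 0.05), the adaptor Ywhaz (-0.23 ± 0.03) and the chaperone Hsp90aa1 (1227–1363 to 963–1073 CPM, -0.33 ± 0.04) also fell.

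Iron and antioxidant genes had 8 of 30 members higher (26.7% against 11.1% of all genes), with a median of 0.11. The 2 that were lower, 6.67% against 8.59% of all genes, were Slc40a1 and Gclc. Gclc was not called without healthy 2, 3, 4 or 5 or acute 1, 2, 4 or 5, with the offset for length (adjusted p = 0.0534) or without healthy 3 and acute 5 (adjusted p = 0.188). Hmox1, which breaks down heme, rose from 4.85–6.93 to 9.83–12.4 CPM (log2 change 0.92 ± 0.12, adjusted p = 1.22e-05). Gpx4, the enzyme that prevents ferroptosis, was not called at 280.1 to 302 CPM in healthy and 294 to 346 CPM in acute libraries (log2 change 0.08 ± 0.06, adjusted p = 0.37). Proliferation genes had 7 of 19 higher (36.8% against 11.1% of all genes) and none lower (median 0.55). Among the 7 were Mki67 (1.07–1.896 to 2.25–4.01 CPM, log2 change 0.97 ± 0.21, adjusted p = 0.00307) and the topoisomerase Top2a (log2 change 1.08 ± 0.25, adjusted p = 0.00363), and the dividing cells cannot be named from whole tissue. Of 24 stress response genes of the endoplasmic reticulum and its translation arm 3 rose (12.5% against 11.1% of all genes), 5 without healthy 3, and 1 fell (4.17% against 8.59%), with a median of 0.11. The called genes included the chaperone cofactor Sdf2l1 (log2 change 0.62 ± 0.13, adjusted p = 0.00253) and Atf3 (log2 change 0.82 ± 0.23, adjusted p = 0.0179), the latter not without acute 3 (adjusted p = 0.0584). Acod1, which makes itaconate in activated macrophages, rose from 0–0.169 to 0.572–2.45 CPM (log2 change 4.52 ± 0.79, adjusted p = 0.000571). Ido1, which degrades tryptophan, fell (log2 change -0.83 ± 0.28, adjusted p = 0.0418), with overlap, and was not called without healthy 3 and acute 5 (adjusted p = 0.241) or in 7 of 10 fits that left out 1 library, those without healthy 3, 4 or 5 or acute 2, 3, 4 or 5. None of 12 mitochondrially encoded genes was called.

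The chronic libraries are set beside the acute ones for a few genes chosen after their values were seen. Both comparisons share the acute libraries, and the tests below are of chronic against acute, where 1259 genes were called (7.69%). Irf7 was at 5.16, 6.405, 5.49 and 8.06 CPM in chronic 1 to 4 and was lower than in acute libraries (log2 change -2.27 ± 0.33, adjusted p = 0.00204), as were Cxcl10 at 1.28, 2.54, 1.44 and 5.27 CPM (-2.63 ± 0.43, adjusted p = 0.00395) and Gfap at 139, 222, 179 and 247 CPM (-0.93 ± 0.15, adjusted p = 0.00444). For these 3 genes every chronic library lay between the healthy and the acute values. P2ry12 was at 9.77, 7.01, 6.34 and 10.9 CPM and higher than in acute libraries (0.70 ± 0.16, adjusted p = 0.0119), and Slit2 was at 19.3, 20.6, 18.6 and 21.4 CPM, also higher (0.45 ± 0.08, adjusted p = 0.00204).

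Other genes gave no call between the phases. Cd74 was at 21.3, 16.8, 16.04 and 72.5 CPM (-0.60 ± 0.40, adjusted p = 0.421), H2-Aa at 6.66, 7.32, 6.08 and 25.3 CPM (-0.72 ± 0.40, adjusted p = 0.326) and C4b at 17.2, 25.2, 18.5 and 63.6 CPM (-0.55 ± 0.35, adjusted p = 0.4), each with chronic 4 far above the other chronic libraries. Chronic 4 also had the highest mitochondrial share of its group, 0.873%. Tnnc1 was at 10.7, 8.23, 6.98 and 8.38 CPM (0.05 ± 0.14, adjusted p = 0.87), close to its acute level, and Fkbp5 at 64.2, 72.99, 74.04 and 58.2 CPM (-0.65 ± 0.18, adjusted p = 0.0502).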

How the data were processed

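RNA of whole cortex was sequenced after poly A selection. Per the submitters' processing notes and the file header, the authors aligned reads with STAR 2.4 to GRCm38 and counted them per gene with featureCounts 1.5.1 over Ensembl 79 exons, without using strand. The deposited table holds raw counts per gene, which were used as deposited. Samples were grouped by their titles. Counts of 17848273 to 27915940 per library limit the precision of genes with few counts, and counting intervals and floors cover counting error only.

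All 14 input libraries were fitted with edgeR 4.0.16 (R 4.3.3) after a filter on low counts (filterByExpr, at least 10 counts in enough libraries and 15 in all), TMM scaling and robust dispersion, and acute was tested against healthy with the quasi-likelihood F test and Benjamini-Hochberg adjustment over 16381 genes. The common biological coefficient of variation was 0.101. On simulated counts of 15920 genes, 95 were changed 1.5-fold and 96 were changed 2-fold. Of these 74.7% and 88.5% were called, with 6 false among 162 calls. The simulation changed far fewer genes than were called in the data and had no library that stood apart, so these rates need not hold for the data. An exact Poisson ratio interval at 95% was used for genes with 1 to 3 healthy counts, and a floor of 3 counts over the group for genes with 0. Replicates of a group differed by more than counting noise, so no library was counted as a copy of another.

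Named genes were the 15 with the largest rise and the 15 with the largest fall among called genes with no overlap, with a mean log2 CPM of 1 or more and without a provisional symbol. Added were the 10 with the largest CPM difference each way, and of each list up to 6 genes by adjusted p, up to 3 by level per length and any called against the list's direction. Sting1, Gpx4 and Colgalt2 were always named. Chosen after their values were seen were Adar, Bst2, Cldn5, Fkbp5, H2-D1, H2-DMa, H2-K1, Ifit3, Ifnar1, Ifnar2, Ifngr1, Il6, Ngp, Oasl2, Slc1a2, Tnf and Vim, the interferon genes, the marker genes under the filter, and the genes compared with chronic libraries. The comparison and the gene lists were chosen with earlier results of these data known. Alternatives were DESeq2 size factors, no filter, DESeq2 1.42.0, the replicate number as a block, the 10 libraries alone and each library left out. An offset for gene length and leaving out healthy 3 and acute 5 together were added after the data were seen. Some genes are not reported here.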

Additional observations from a re-analysis of the deposited data

Results flagged for a closer look

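In 38 of 383 groups of 5 libraries (9.92%), 1 library stood far from the other 4. Dixon's test would flag about 1 in 20 groups of independent, normally distributed values. Genes with counts in 1 library alone always pass the limit, and genes of a library are not independent, so this share was not tested as an excess. The measure was the gap to the nearest library over the range of the group, against Dixon's critical value of 0.71. Values are CPM.

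Healthy 3 stood above the other healthy libraries for 11 genes. They were Apoe (480.2 against 173.4 to 251.9), Arpp21 (717 against 606.2 to 620.3), Filip1 (28.72 against 17.41 to 18.63), H2-D1 (23.65 against 13.23 to 15.92), H2-DMa (14.64 against 8.666 to 9.539), P2ry12 (9.518 against 6.952 to 7.258), Pcsk1n (666.7 against 543.8 to 569.7) and Slc17a8 (5.407 against 2.8 to 3.412). It was also the only healthy library with counts of Ccl8 (0.1126), Ngp (0.1126) and Plac8 (0.169).

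Acute 5 stood above the other acute libraries for C1qa (41.41 against 22.1 to 26.47), Gpx4 (346.2 against 294.4 to 300.5), Gria4 (68.31 against 58.97 to 61.3), Ifngr1 (9.78 against 5.911 to 6.611) and Pcsk1n (910.7 against 678.5 to 725.6). It stood below them for Gabrb2 (56.81 against 70.77 to 73.39) and Pja2 (564.9 against 634.6 to 654.5). The B cell gene Ms4a1 had counts in acute 5 alone (0.1561).

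Healthy 2 was the highest healthy library for the interferon targets Ifit3 (10.87 against 6.802 to 7.8), Irf7 (3.294 against 0.9208 to 1.126), Oasl2 (3.953 against 1.4 to 2.112) and Usp18 (1.318 against 0.2773 to 0.5632). It alone among healthy libraries had a count of Cxcl9 (0.05491) and of Tnf (0.05491). All these values lay below every acute library.

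Single libraries stood apart for the rest. Healthy 1 was high for Cd3e (0.2001 against 0 to 0.05546) and healthy 5 for Ifi47 (0.721 against 0.1126 to 0.2501) and Tsc22d3 (109.1 against 91.03 to 95.92). Healthy 5 had the only healthy count of Cd8a (0.05546) and of Saa3 (0.05546). Acute 1 was high for Bdnf (31.38 against 27.98 to 28.59), Ccl5 (18.52 against 6.959 to 9.491), Ifng (0.3661 against 0 to 0.07174) and Neat1 (157.9 against 90.83 to 110.0). Acute 3 was high for Hmox1 (12.38 against 9.832 to 10.49), and acute 4 for Crybb1 (11.46 against 9.219 to 9.637) and Ngp (1.807 against 0.1435 to 0.5723). Healthy 1 was low for Gclc (70.97 against 75.06 to 75.64).

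Of the 10 genes set beside the chronic libraries, 5 differed between chronic and acute in edgeR's quasi-likelihood test. The log2 change of chronic against acute was -0.9271 for Gfap (adjusted p = 0.00444), -2.627 for Cxcl10 (adjusted p = 0.00395) and -2.273 for Irf7 (adjusted p = 0.00204). It was 0.7048 for P2ry12 (adjusted p = 0.0119) and 0.4498 for Slit2 (adjusted p = 0.00204).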

How the results depend on the processing

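The 1823 genes that rose and the 1407 that fell kept within 1.5 times of these counts in all 17 alternatives. The counts were 1841 and 1391 with DESeq2's size factors, 1793 and 1278 without a filter on low counts, 2031 and 1614 with DESeq2's Wald test, and 1762 and 1342 with only the 10 acute and healthy libraries. Leaving out 1 library at a time gave 1526 to 1782 higher, 1103 to 1538 lower, 504 to 577 higher more than 2-fold and 39 to 51 lower more than 2-fold. Added after the data were seen, the offset for gene length gave 1814 and 1153, and leaving out healthy 3 and acute 5 gave 1655 and 1182. With the replicate number as a block, 1771 genes rose and 1377 fell. The titles do not say that a number marks a shared mouse or day, and the correlations of the deviations of acute and healthy libraries with the same number were 0.037, 0.015, -0.042, -0.006 and -0.058, so the block was not taken as a pairing.

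Of 170 named genes that were called, 155 kept their call and direction in every alternative that gave them an adjusted p and 15 lost the call in at least 1. No adjusted p was had for Ly6c2 in 5 of the 17, for H2-Ab1 with DESeq2's Wald test and for Timp1 with only the 10 libraries. The 15 are Adamts4, Atf3, Dnah7b, Gclc, Grin2b, Ido1, Ighm, Itga4, Lck, Lpl, Neat1, P2ry12, Pcsk1n, Rian and Shank3. Under the block, Adamts4, Ido1, Itga4, Lck and Gclc lost it (adjusted p = 0.0647, 0.066, 0.0502, 0.0525 and 0.062). Of 18 that were not called, Cd4, H2-DMa and Adora2a were called in at least 1. None of the values of these genes changed sign while called. Of 2754 list counts and medians under the alternatives, 2514 stayed close to the reported value. A planned count of genes called in both the acute comparison and the chronic one was not made, since both share the acute libraries. Depth limits the interferon, lymphocyte and neutrophil genes, most of which were under the filter.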

Other observations

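Noncoding RNAs of the nucleus moved in both directions. Gas5, a host of small nucleolar RNAs, was at 65.6, 63.03, 55.2, 66.7 and 62.9 CPM in healthy and 77.2, 74, 77.3, 82.2 and 94.6 CPM in acute libraries (log2 change 0.37 ± 0.06, adjusted p = 0.000408). Neat1, the scaffold of paraspeckles, rose from 54.8–82.9 to 90.8–158 CPM (log2 change 0.68 ± 0.20, adjusted p = 0.0319) but was not called without healthy 1, 3, 4 or 5 or acute 1 or 4, or without healthy 3 and acute 5 (adjusted p = 0.0597). Rian, an imprinted neuronal RNA, fell from 517–569.9 to 417–483 CPM (log2 change -0.26 ± 0.04, adjusted p = 0.000256) and was not called with the offset for length (adjusted p = 0.0962). The groups overlapped in none of these 3 genes.

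Genes of the matrix and of lipid synthesis gave few calls. Adamts4, a protease of matrix proteoglycans, was the 1 matrix gene that fell, from 10.9–16.7 to 5.201–9.89 CPM (log2 change -0.67 ± 0.19, adjusted p = 0.0188), but not without healthy 3 and acute 5 (adjusted p = 0.0608). Timp1, an inhibitor of such proteases, was at 0.1, 0.2196, 0.169, 0.108 and 0.444 CPM in healthy and 1.46, 0.323, 1.08, 1.19 and 0.936 CPM in acute libraries and rose (log2 change 2.22 ± 0.52, adjusted p = 0.00514). Hmgcs1, an early enzyme of cholesterol synthesis, was the 1 gene of its list that fell, from 308–346 to 240–271 CPM (log2 change -0.36 ± 0.05, adjusted p = 8.15e-05). The small heat shock protein Hspb8 rose from 9.53–13.2 to 16.6–21.1 CPM (log2 change 0.73 ± 0.10, adjusted p = 3.16e-05), unlike the larger chaperone Hsp90aa1 (log2 change -0.33 ± 0.04, adjusted p = 9.96e-06).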
